A study of Mus musculus with 6 samples.

Results

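To describe the bone-forming lineage in BMSCs exposed to RA, 10 genes were followed, Igsf10 and 9 genes of osteoblast differentiation and bone matrix (Runx2, Sp7, Dlx5, Alpl, Ibsp, Spp1, Bglap, Sparc and Postn). They are 10 of the 25722 genes in the count tables, taken by gene name. Igsf10 was chosen by its read counts, which were lower after RA in these same libraries, and the other 9 for their known roles with results of these data in view, so the RA comparison of all 10 is given as a description, without p-values, and a call among them is no independent evidence. The cells were C57BL/6 mouse BM-MSCs, which the study calls BMSCs and took from marrow of tibia and femur, grown in low-glucose medium with a ROCK inhibitor under low oxygen. Per the labels, 3 control libraries came from cells given the solvent DMSO and 3 from cells given 1 μM ATRA (all-trans RA) for 48 h, while the study's methods name a lower dose and a shorter time for its sequencing. The labels speak of fewer biological replicates than the 3 libraries per group that were analysed, and they do not say whether the libraries came from separate animals or cultures, so the spread between them may in part be technical.

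Osteoblasts arise from mesenchymal progenitors of the marrow. RUNX2, a runt-domain transcription factor, starts the program, and the zinc finger factor SP7 (osterix) acts downstream of it, while the homeobox factor DLX5 promotes both. The cells then lay down a collagen matrix holding SPARC, periostin, osteopontin (Spp1) and bone sialoprotein (Ibsp), and alkaline phosphatase (Alpl) breaks down pyrophosphate so that the matrix can mineralise. Osteocalcin (Bglap) marks the mature stage. Igsf10 encodes a large secreted protein with immunoglobulin and leucine-rich repeat domains that is known from bone-forming cells. Retinoids act through nuclear receptors and are known to influence skeletal cells, including chondrocytes and osteoblasts.

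The libraries held 14737636 to 18511905 counts, and 13842 genes passed the expression filter. Whatever their treatment, the libraries fell into 2 sets. A principal component analysis of the 1000 genes of highest variance put 57.2% of that variance on the component that parts them. Set 1 was control 2, RA-treated 1 and RA-treated 2, and set 2 was control 1, control 3 and RA-treated 3. Neither the labels nor the study name a batch for these sets. Differences within each set are therefore given too, resting on 1 control in set 1 and on 1 RA-treated library in set 2. The retinoid response was visible, with 9 of 9 tested genes of a retinoid response list at a higher mean after RA and 2 of them (Cyp26b1 and Cd38, named after their values were seen) passing the edgeR test, where 0.0361% of all genes were called higher. These calls depended on the libraries used, since 0 genes were called higher without control 1, and 1 gene without control 3, RA-treated 1 or RA-treated 2. The labelled cell type was less clear. The summed level of 15 macrophage markers ran from 20579 to 23306 CPM (counts scaled to library size with TMM factors) over the libraries and that of 15 mesenchymal stromal markers from 1651 to 2433 CPM. The stromal markers Itgb1 and Cxcl12 stood at 813.0 ± 185 and 408.1 ± 37.8 CPM in control libraries (SD, n = 3), while Thy1, also a defining marker, stood at 0.331 ± 0.166 CPM. In such bulk RNA, fewer cells of a type and less RNA per cell cannot be told apart.

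Igsf10 (ENSMUSG00000036334, GRCm38 chromosome 3 from 59316735 to 59344394, minus strand) stood at 7.0, 8.88 and 7.43 CPM in controls 1 to 3. After RA it stood at 1.61, 1.20 and 1.16 CPM in replicates 1 to 3. Every RA-treated library was low and every control high, with no overlap. The means were 7.77 ± 0.985 CPM in control and 1.33 ± 0.249 CPM in RA-treated BMSCs (SD, n = 3), a ratio of 0.172 and a log2 fold change of -2.54 (standard error 0.24). The counts behind these values were 100, 167 and 108 in control and 29, 19 and 17 in RA-treated libraries. Within set 1 the log2 difference was -2.57 and within set 2 it was -2.51, values of like size. Control 2 was 1.23 times the mean of the other controls.

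Of the 10150 exonic bases of Igsf10, 1948 also lie in exons of Med12l on the opposite strand, and whether counting used strand is not given in the sources used here. Med12l, named here for this overlap after its values were seen, had 3, 3 and 2 counts in control and 7, 5 and 6 counts in RA-treated libraries. These compare with the 17 to 29 counts of Igsf10 after RA, and the part of the shared bases in either count was not tested. The start of Igsf10 is shown because it has the largest difference of the 9 tested genes over all libraries, although not within set 2. The RefSeq promoter window (GRCm38.p6), kept to the part outside annotated exons, covers chr3:59344395-59344506 on the minus strand.

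Igsf10 promoter: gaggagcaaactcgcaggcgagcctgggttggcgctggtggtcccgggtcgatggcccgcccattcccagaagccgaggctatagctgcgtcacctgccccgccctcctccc

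It was searched on both strands for AGGTCA, the core letters that retinoid and other nuclear receptors bind, and for ACCACA, the core bound by RUNX factors, which do not overlap as letter strings. Neither was found in the Igsf10 window, also when extended to the full 250 bases before the start. For comparison, AGGTCA was present in 14.0% of 32851 mouse promoter windows of 250 bases and ACCACA in 14.0%. A match is a string of letters and no match says only that these letters are not in this window.

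Among all tested genes outside the 10, the 5 whose log2 CPM profile came nearest to that of Igsf10 over the 6 libraries were Rerg, Sfrp2, Adamtsl3, Slc13a5 and Cys1. Nearness was the root mean square difference after each gene was centred on its own mean, and it was 0.21, 0.21, 0.26, 0.31 and 0.32 on the log2 scale. Sfrp2, which encodes a secreted modulator of Wnt signalling, stood at 2.18 ± 0.236 CPM in control and 0.427 ± 0.120 CPM after RA. Adamtsl3, which encodes a secreted ADAMTS-like matrix protein, stood at 10.2 ± 2.16 CPM in control and 2.43 ± 0.682 CPM after RA (both SD, n = 3). Rerg and Slc13a5 rested on few reads, with at most 3 counts in any RA-treated library. In all 5 genes, as in Igsf10, each RA-treated library lay below each control, which follows from how they were picked.

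**Figure D1:**
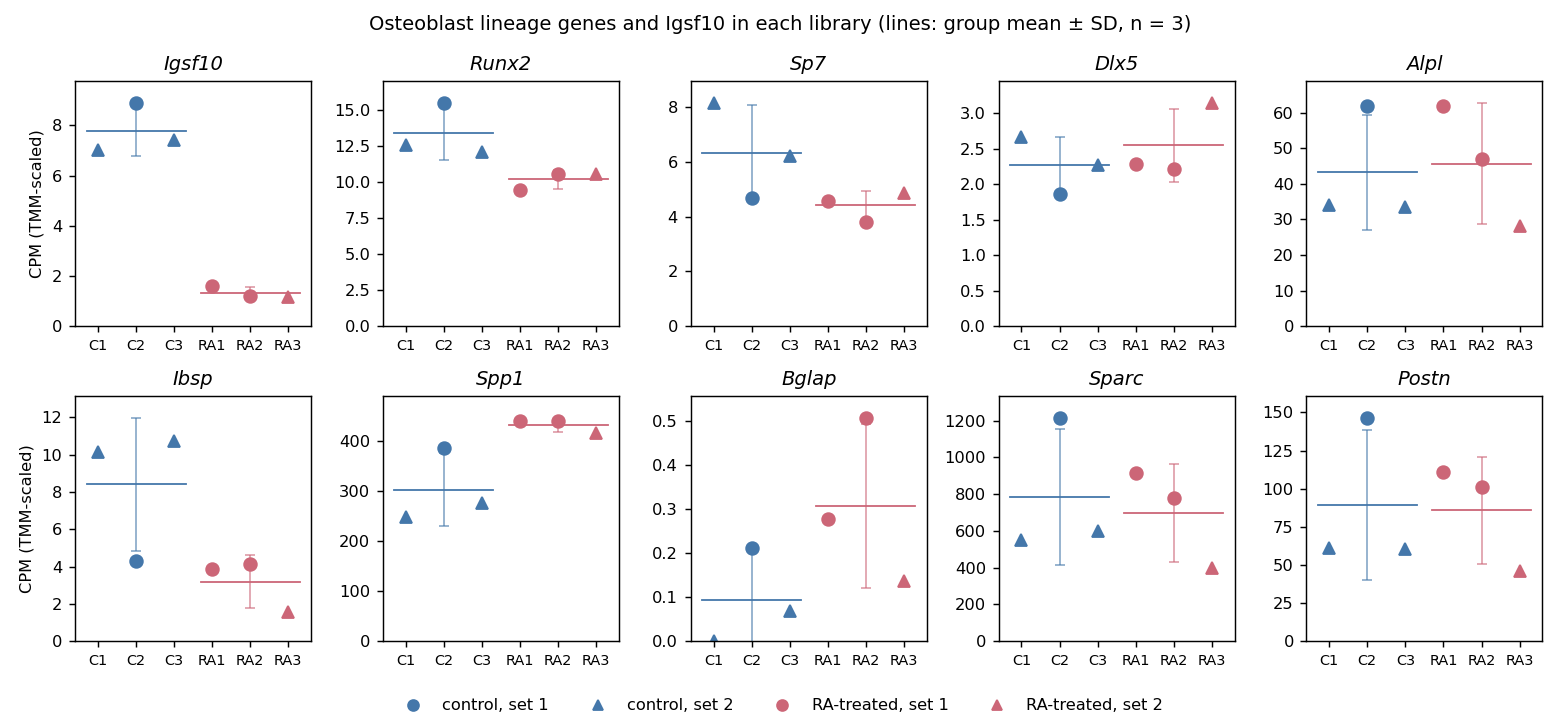
CPM (y axis, TMM-scaled, linear from 0) of the 10 genes in controls 1 to 3 (C1 to C3) and RA-treated libraries 1 to 3 (RA1 to RA3), with circles for set 1, triangles for set 2, lines for group means and bars for SD (n = 3). Igsf10 sits between 7.0 and 8.88 CPM in control and between 1.16 and 1.61 CPM after RA, while Sparc and Postn are highest in control 2.

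Of the transcription factors, Runx2 (ENSMUSG00000039153, chromosome 17 from 44495987 to 44814797, minus strand) stood at 12.6, 15.5 and 12.1 CPM in controls 1 to 3 and at 9.45, 10.6 and 10.6 CPM after RA. The groups did not overlap, but the gap was small, from 12.1 CPM in the lowest control to 10.6 CPM in the highest RA-treated library. The log2 fold change was -0.39 (standard error 0.17), with -0.62 within set 1 and -0.22 within set 2. Of the 8837 exonic bases of Runx2, 519 also lie in exons of the antisense gene Runx2os1, which had at most 8 counts in any library.

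Sp7 (ENSMUSG00000060284, chromosome 15 from 102356606 to 102367182, minus strand) stood at 8.12, 4.68 and 6.19 CPM in controls 1 to 3. After RA it stood at 4.56, 3.80 and 4.84 CPM. The groups overlapped by a small margin, since RA-treated 3 lay above control 2. On the log2 scale the difference was -0.52 (standard error 0.26), and within the sets the difference was -0.16 and -0.54. The standard error and the spread of the controls (6.33 ± 1.73 CPM, SD, n = 3) leave the size of this difference uncertain.

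Dlx5 (ENSMUSG00000029755, chromosome 6 from 6877805 to 6882085, minus strand) was the least abundant of these factors by CPM, with 2.66, 1.86 and 2.27 CPM in control and 2.28, 2.22 and 3.14 CPM after RA. The groups overlapped. Its log2 fold change was 0.17 (standard error 0.27), and it was 0.26 within set 1 and 0.34 within set 2. Without RA-treated 3 the log2 fold change was -0.01, so its direction over all libraries rested on that library. Dlx6, its neighbour 9237 bases away, had 3 to 7 counts in each library and was not tested.

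Of the genes for mineral formation, Alpl (ENSMUSG00000028766, chromosome 4 from 137741733 to 137796384, minus strand) stood at 34.2, 62.0 and 33.5 CPM in controls 1 to 3 and at 61.9, 47.0 and 28.1 CPM after RA. Here the sets stood apart more than the treatments, with the libraries of set 1 at 47.0 CPM or more and those of set 2 at 34.2 CPM or less. The log2 fold change over all libraries was 0.08 (standard error 0.36), while it was -0.20 within set 1 and -0.27 within set 2. Without control 2, the only control of set 1, it was 0.45, while it was -0.07 without control 1, -0.08 without control 3 and -0.18 without RA-treated 1.

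Ibsp (ENSMUSG00000029306, chromosome 5 from 104299171 to 104311469, plus strand), whose bone sialoprotein binds both mineral and integrins, stood at 10.2, 4.31 and 10.7 CPM in controls 1 to 3. After RA it stood at 3.89, 4.12 and 1.57 CPM. The groups did not overlap, yet control 2 lay close to its own RA-treated libraries. Over all libraries the log2 difference was -1.38 (standard error 0.48), and it was -0.10 within set 1 against -2.64 within set 2. In set 2 the single RA-treated library had 23 counts beside 145 and 156 in the controls. Without that library the log2 fold change was -1.06, set by the higher controls of set 2 against the RA-treated libraries of set 1. Whether the sets differ in their response to RA was not tested, as each set has a group of 1 library.

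Spp1 (ENSMUSG00000029304, chromosome 5 from 104435118 to 104441050, plus strand) lies 123649 bases from Ibsp in the same cluster of bone matrix phosphoprotein genes. Osteopontin is made by osteoblasts and also by macrophages and osteoclasts. Spp1 stood at 247.7, 385.4 and 276.3 CPM in controls 1 to 3 and at 439.8, 440.3 and 416.0 CPM after RA. Here the RA-treated libraries were the high ones, all above the controls and close together (432.0 ± 13.9 CPM against 303.1 ± 72.7 CPM in control, SD, n = 3). The log2 fold change was 0.51 (standard error 0.18), with 0.19 within set 1 and 0.67 within set 2. Over all libraries Spp1 and Ibsp, neighbours on the chromosome, thus stood on opposite sides of control. Within set 1 both differences were small, at 0.19 and -0.10 on the log2 scale. Dmp1, another gene of this cluster, had 0 counts in each control and at most 3 in an RA-treated library. Mepe was not found by name in the count tables.

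Bglap (ENSMUSG00000074483, chromosome 3 from 88383501 to 88384464, minus strand) had 0, 4 and 1 counts in controls 1 to 3 and 5, 8 and 2 counts after RA. It did not pass the filter, and no fold change is given. A count of 0 in control 1 still allows up to 0.21 CPM (3 counts), and such limits cover counting error only. Osteocalcin has 3 near-identical genes in the mouse, in a row on chromosome 3. Their coding sequences are shown because reads from one can be assigned to another. They come from GENCODE release M21 (GRCm38), and capitals mark the 13 of 288 positions at which the copies are not all alike.

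Bglap: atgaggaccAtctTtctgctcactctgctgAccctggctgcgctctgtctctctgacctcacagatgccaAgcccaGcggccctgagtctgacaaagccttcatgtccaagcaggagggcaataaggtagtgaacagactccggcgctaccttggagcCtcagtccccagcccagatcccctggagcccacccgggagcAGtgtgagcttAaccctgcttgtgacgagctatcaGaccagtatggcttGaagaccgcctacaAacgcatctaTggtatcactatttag

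Bglap2: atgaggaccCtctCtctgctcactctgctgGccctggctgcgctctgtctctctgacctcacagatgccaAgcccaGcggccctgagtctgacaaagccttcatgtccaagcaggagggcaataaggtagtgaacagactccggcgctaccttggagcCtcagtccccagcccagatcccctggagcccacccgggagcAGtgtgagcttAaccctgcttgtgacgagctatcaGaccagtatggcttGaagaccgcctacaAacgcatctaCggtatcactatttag

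Bglap3: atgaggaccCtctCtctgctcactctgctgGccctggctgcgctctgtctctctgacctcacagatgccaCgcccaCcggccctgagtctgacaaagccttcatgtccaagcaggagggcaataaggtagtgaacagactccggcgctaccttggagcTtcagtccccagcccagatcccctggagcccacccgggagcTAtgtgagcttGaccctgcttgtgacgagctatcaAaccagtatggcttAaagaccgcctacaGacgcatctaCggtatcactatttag

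Bglap and Bglap2 differed at 4 of 288 bases (98.6% identity) and shared a stretch of 241 bases without a difference. Bglap3 was 95.5% identical to Bglap and 96.9% to Bglap2. How the authors counted reads that match several copies is not given in the sources used here, so the values of each copy are uncertain. Bglap2 had 10, 16 and 8 counts in control and 8, 6 and 5 counts after RA. Bglap3 had 1 to 4 counts in each library. The Bglap2 groups did not overlap in CPM, with the RA-treated libraries the lower ones, but the gene did not pass the filter and was not tested.

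The promoter of Bglap and 1 of the windows of Spp1 are shown because each holds the RUNX core ACCACA, which is in capitals. They cover chr3:88384467-88384716 on the minus strand and chr5:104434861-104435110 on the plus strand (RefSeq, GRCm38.p6), and 8 of the 10 genes had such a window. Elsewhere, ACCACA and AGGTCA (or their reverse complements) were each found once in the full 250 bases before Runx2, and AGGTCA once in 1 of the windows of Alpl and of Postn. The other window of Spp1 held neither string.

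Bglap promoter: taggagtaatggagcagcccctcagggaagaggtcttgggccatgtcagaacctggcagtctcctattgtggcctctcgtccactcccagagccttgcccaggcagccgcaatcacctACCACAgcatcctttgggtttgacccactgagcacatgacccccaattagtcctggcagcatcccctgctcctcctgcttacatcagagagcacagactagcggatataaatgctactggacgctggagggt

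Spp1 promoter: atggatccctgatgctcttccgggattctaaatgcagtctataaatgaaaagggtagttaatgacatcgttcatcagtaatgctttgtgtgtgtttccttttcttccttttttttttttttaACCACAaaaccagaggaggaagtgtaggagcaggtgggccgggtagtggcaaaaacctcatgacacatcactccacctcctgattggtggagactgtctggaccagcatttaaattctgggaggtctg

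Of the structural matrix genes, Sparc (ENSMUSG00000018593, chromosome 11 from 55394500 to 55423183, minus strand), a collagen-binding glycoprotein, stood at 548.0, 1213 and 599.3 CPM in controls 1 to 3. After RA it stood at 913.8, 777.1 and 399.7 CPM. Control 2 was 2.12 times the level of the other controls, and the groups overlapped. Over all libraries the log2 fold change was -0.18 (standard error 0.41). Within the sets it was -0.53 and -0.52, and each RA-treated library lay below each control of its own set.

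Postn (ENSMUSG00000027750, chromosome 3 from 54361109 to 54391037, plus strand), a matrix protein of periosteum and other connective tissue, was likewise highest in control 2 and lowest in RA-treated 3. It stood at 61.0, 146.2 and 60.4 CPM in controls 1 to 3 and at 111.0, 100.8 and 45.7 CPM after RA. The log2 fold change was -0.06 (standard error 0.46) over all libraries, -0.47 within set 1 and -0.41 within set 2. When the edgeR model held the set as a term, the log2 fold changes were -0.52 (standard error 0.09) for Sparc and -0.44 (standard error 0.08) for Postn. Without control 2 they were 0.30 and 0.51, and without RA-treated 3 they were 0.10 and 0.24, so the pooled direction of both genes turned when either library was left out.

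**Figure D2:**
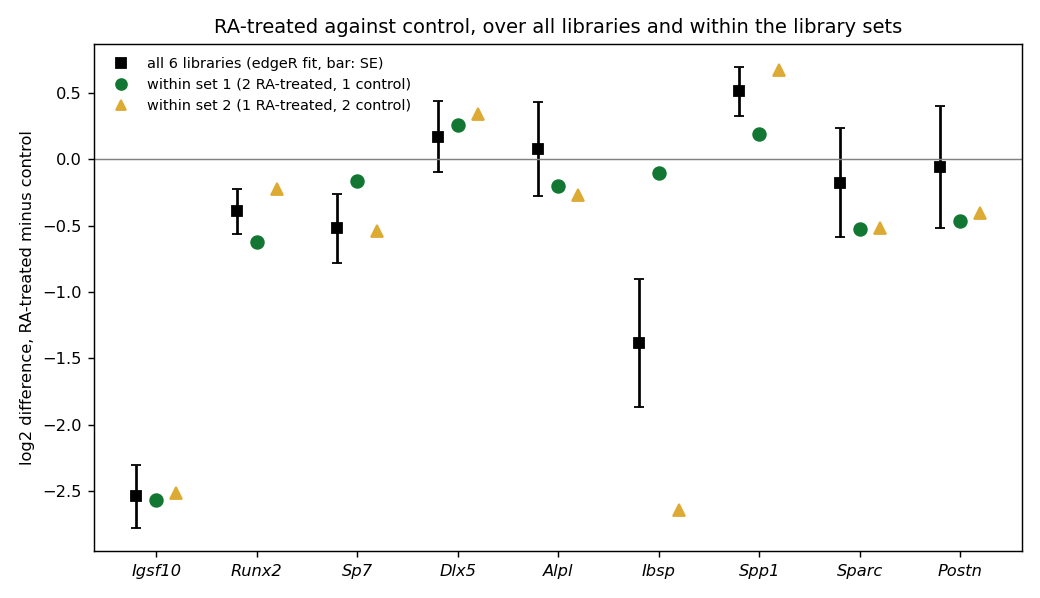
Log2 difference of RA-treated from control (y axis) for the 9 tested genes, with squares for the edgeR fit over all 6 libraries (bars, standard error), circles within set 1 and triangles within set 2. The values of Igsf10 lie together near -2.5, those of Ibsp spread from -0.10 to -2.64, and those of Sparc and Postn are lower within both sets than over all libraries.

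Over the 9 tested genes, 1 (Igsf10) passed an edgeR adjusted p under 0.05 with at least 1.5-fold, where 0.0433% of all tested genes did (0.00722% lower and 0.0361% higher), which restates how Igsf10 was picked. Igsf10 no longer passed when any 1 of the 6 libraries was left out, nor with the replicate number as a block or scaling by library size alone, while its log2 fold change stayed between -2.69 and -2.42. In 3 genes (Igsf10, Runx2 and Ibsp) the highest RA-treated library was below the lowest control, as in 6.87% of all genes, and in 1 (Spp1) they lay above, as in 5.71%. Both within-set differences were below 0 in 7 of the 9, as in 35% of all genes. In the same 7, no RA-treated library reached a control of its own set (Igsf10, Runx2, Sp7, Alpl, Ibsp, Sparc and Postn), as in 23.5% of all genes. They lay above each such control in Spp1 and Dlx5, as in 18.5% of all genes. Control 2 was at least 1.5 times the other controls in 3 genes (Alpl, Sparc and Postn), as in 15.1% of all genes.

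Levels between genes were compared as TPM (counts per exonic length, scaled to the same sum in each library). As means over the 6 libraries of both groups, Spp1 had 787.8 TPM and Sparc 694.9 TPM. Their ranges overlapped (519.0 to 984.1 and 369.0 to 1165 TPM). By group means per exonic length Sparc was the higher in control and Spp1 after RA. The order in control came from control 2, where Sparc was 2.12 times the level of the other controls. In control 1, control 3 and each RA-treated library, Spp1 was the higher. Alpl and Postn followed at 39.1 and 35.7 TPM, with ranges that also overlapped (24.4 to 56.6 and 18.4 to 61.1 TPM). Ibsp, Sp7, Runx2 and Dlx5 stood at 9.80, 5.55, 4.71 and 3.74 TPM, with neighbours in this order not parted beyond their ranges. Igsf10 had a mean of 1.58 TPM, which pools groups that lie apart, and its range of 0.400 to 3.18 TPM overlapped those of Dlx5, which began at 2.99 TPM, and of Bglap, whose mean was 1.14 TPM.

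To see whether other genes of the lineage moved with these, 4 lists of 69 osteoblast genes were examined, of which 65 were in the tables and 55 passed the filter. In the edgeR quasi-likelihood fit of the whole table, 0 of the 55 were called, while 11 had an unadjusted p under 0.05 (7 lower and 4 higher), beside 5.25% of all genes (2.36% lower and 2.89% higher). Both DESeq2 and edgeR's likelihood ratio test called 4 of the 55 (Gja1, Ogn, Slc20a2 and Tnfrsf11b), beside 0.983% and 0.968% of all genes. In a fit with the set as a covariate 9 were called, 7 lower and 2 higher, where 1.54% of all genes were called. The sets were seen in the expression of these same libraries, so this fit is a value within the sets rather than a separate test.

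In the list of collagens and other structural matrix genes, of 18 tested genes 13 were lower and 5 higher after RA, with a median log2 fold change of -0.24 beside -0.02 over all genes. Within the sets the medians were -0.63 and -0.50, beside 0.00 and -0.02 over all genes, and in 14 of the 18 each RA-treated library lay below each control of its own set, as in 23.5% of all genes. The list's median over all libraries was 0.13 without control 2 and 0.01 without RA-treated 3. Col6a1, a chain of the microfibrillar collagen VI, went from 192.4 ± 75.4 to 99.3 ± 34.1 CPM (SD, n = 3), a log2 fold change of -0.95 (edgeR adjusted p = 0.795). In the model with the set it was -1.25 (edgeR adjusted p = 0.00227). Fmod, encoding fibromodulin, a proteoglycan that binds collagen fibrils, had a log2 fold change of -0.52 (edgeR adjusted p = 0.795) and -0.66 with the covariate (edgeR adjusted p = 0.0243). Col5a1 and Tnc, named after their values were seen, were also called lower in that fit, at -1.46 and -0.88. Col1a1, the main collagen chain of bone and likewise named afterwards, had a log2 fold change of -0.58 (edgeR adjusted p = 0.803) and of -0.91 with the set in the model (edgeR adjusted p = 0.138).

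Ogn stood on the other side. It encodes osteoglycin, a small leucine-rich proteoglycan found in bone. Its level was 28.1, 27.7 and 30.9 CPM in controls 1 to 3 and at 93.9, 118.6 and 69.0 CPM after RA. The RA-treated libraries were all high, in both sets, with a log2 difference of 1.70 (standard error 0.21 and edgeR adjusted p = 0.116). With the set in the model it was 1.58 (edgeR adjusted p = 0.00897). It was also called without RA-treated 3 and without the filter on low counts.

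Of 8 tested mineralization genes, 4 were lower and 4 higher, with a median log2 fold change of -0.08. With 1 library left out, that median ran from -0.42 (without RA-treated 3) to -0.11 (without control 1). Slc20a2, encoding a phosphate importer, stood at 29.6, 37.0 and 29.6 CPM in control and at 108.9, 71.1 and 57.5 CPM after RA, with no overlap. Its log2 fold change was 1.31 (edgeR adjusted p = 0.300) and 1.12 with the covariate (edgeR adjusted p = 0.0269). Its relative Slc20a1 had a log2 fold change of 0.26 and Kazald1, which encodes a secreted protein of bone, -0.68 (edgeR adjusted p = 0.795 and 0.803).

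Of 15 tested genes for surface and signalling proteins of osteoblasts, 9 were higher and 6 lower, with a median of 0.03, while the medians within the sets were -0.15 and -0.07. With 1 library left out, the median over all libraries ran from -0.05 (without control 3) to 0.17 (without RA-treated 3). Gja1, which encodes connexin 43, the gap junction protein of bone cells, had little spread. It stood at 188.5, 180.8 and 189.4 CPM in controls 1 to 3 and at 120.6, 116.9 and 126.4 CPM after RA. On the log2 scale RA-treated cells differed by -0.62 (standard error 0.10 and edgeR adjusted p = 0.205) and -0.59 with the covariate (edgeR adjusted p = 0.0103). Tnfrsf11b, encoding osteoprotegerin, the soluble decoy receptor that restrains osteoclast formation, stood at 10.0, 21.3 and 12.5 CPM in control and at 5.67, 6.09 and 3.07 CPM after RA. Its log2 fold change was -1.56 (edgeR adjusted p = 0.458) and -1.86 with the covariate (edgeR adjusted p = 0.00257). Pth1r, the receptor of parathyroid hormone, had -1.0 (edgeR adjusted p = 0.795) and -1.26 with the covariate (edgeR adjusted p = 0.029).

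Of 14 tested osteoblast transcription factors besides Runx2, Sp7 and Dlx5, 8 were lower and 6 higher, with a median of -0.03 and 0 at an unadjusted p under 0.05. With 1 library left out, the median ran from -0.10 (without control 3) to 0.20 (without control 2), so its direction was not stable. Msx2, a homeobox gene that responds to BMP signals, had the smallest p, at 1.13 on the log2 scale (standard error 0.49 and edgeR adjusted p = 0.795). Fosl2 and Zfp521 followed at -0.49 and -0.33 (edgeR adjusted p = 0.795 for both). No member of this list was called in the fit with the set as a covariate.

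**Figure D3:**
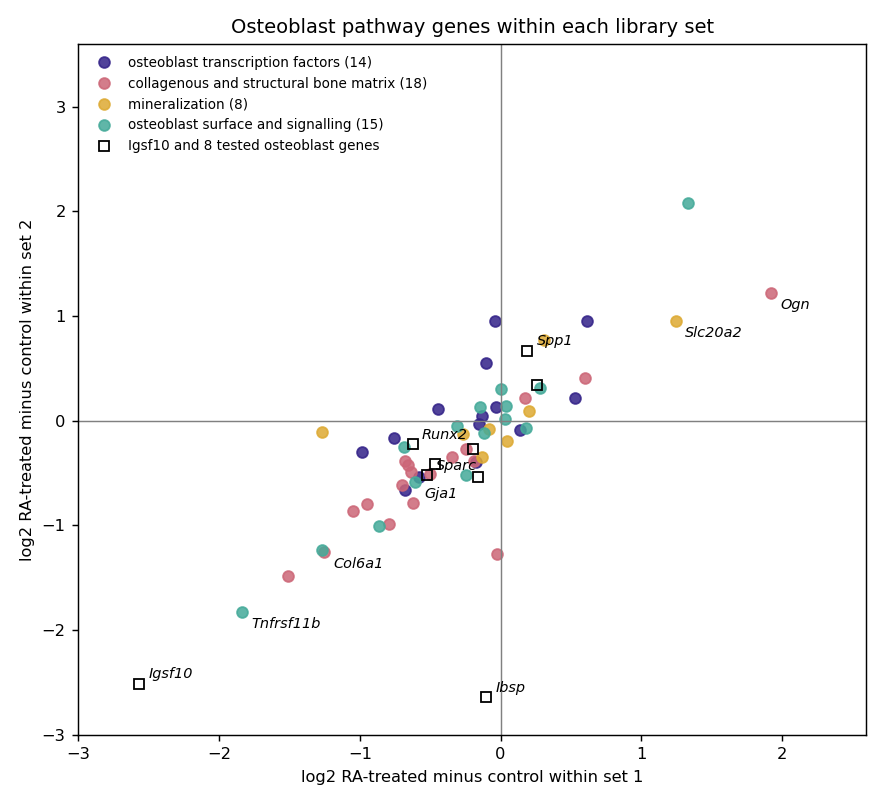
Log2 difference of RA-treated from control within set 1 (x axis) and within set 2 (y axis) for 55 tested osteoblast pathway genes, coloured by list, with open squares for Igsf10 and 8 osteoblast genes. Igsf10 (-2.57 and -2.51) lies farthest to the lower left, Ogn (1.92 and 1.22) farthest to the right, and Ibsp is low within set 2 alone.

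Markers of other cells were read beside these values. The 15 macrophage markers, led by Lyz2 and Adgre1 with Mertk the lowest, summed to between 21037 and 23306 CPM in control and between 20579 and 21925 CPM after RA, with 10 of 15 lower over all libraries and medians of 0.11 and 0.00 within the sets. The 15 mesenchymal stromal markers, of which 13 were tested, summed to between 1651 and 2433 CPM in control and between 1753 and 2398 CPM after RA, with 7 of 13 higher over all libraries and medians of -0.06 and -0.04 within the sets, and were higher in control 2 than in both other controls in 10 of 13. Like the stromal markers, the structural matrix list was higher in control 2 than in both other controls in 15 of 18 genes, where 43.4% of all tested genes were. The same count was 3 of 15 for macrophages, 0 of 4 for adipocytes and 0 of 5 for endothelial cells. For chondrocyte markers it was 3 of 5 and for osteoclast markers 3 of 7. Among the other osteoblast lists it was 11 of 14 transcription factors, 4 of 8 mineralization genes and 10 of 15 surface and signalling genes. The 8 chondrocyte markers, of which 7 were in the tables and 5 tested, summed to between 125.6 and 298.6 CPM in control and between 47.8 and 110.3 CPM after RA. That sum was mostly Col2a1, at 173.8 ± 98.5 CPM in control and 63.6 ± 33.1 CPM after RA (SD, n = 3), with Col11a2 next and Acan near 0. The 10 osteoclast markers, 7 of them tested, summed to between 184.6 and 252.8 CPM in control and between 221.5 and 411.8 CPM after RA, with Mmp9 and Nfatc1 the highest and Calcr the lowest. Of those 7, 5 were lower after RA, while Mmp9 stood at 86.5 ± 52.1 CPM in control and 228.3 ± 120.1 CPM after RA (SD, n = 3). The 8 adipocyte markers, 4 tested, summed to between 1240 and 1795 CPM in control and between 1467 and 1679 CPM after RA, mostly Lpl, then Cebpa, with Plin1 lowest. The 8 endothelial markers, 5 tested, summed to between 9.20 and 22.7 CPM over all libraries, with Pecam1 and Vwf the highest and Tie1 the lowest. No marker was at 0 in each library. The part of these cells in the levels of Spp1, Sparc and the other genes was not tested.

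**Figure D4:**
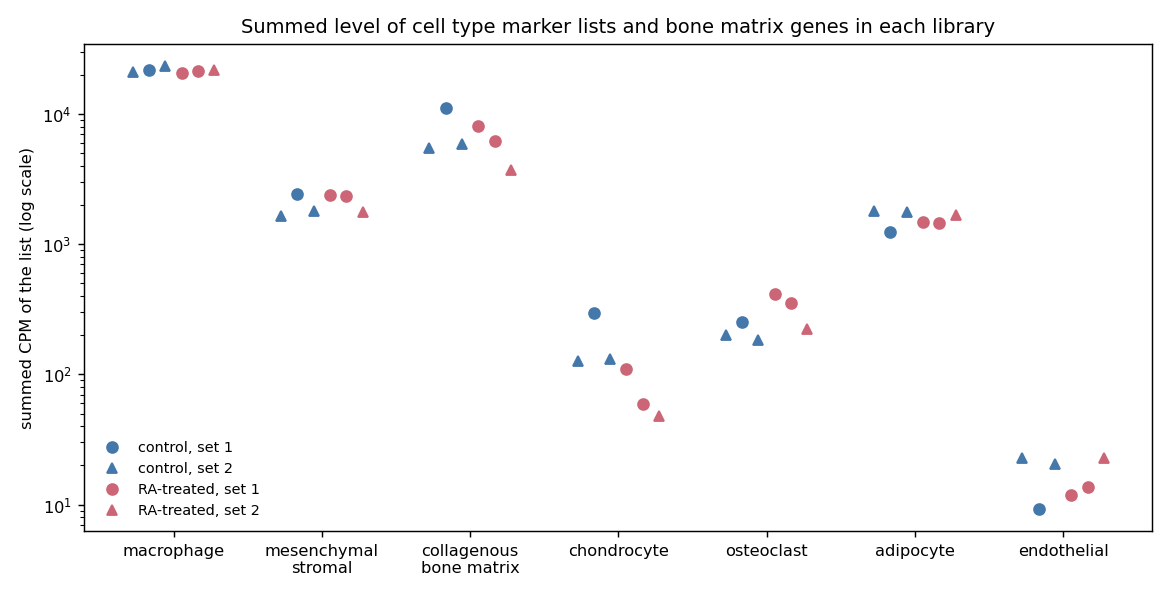
Summed CPM (y axis, log scale) of 6 cell type marker lists and of the structural bone matrix list in each library, coloured by treatment, with circles for set 1 and triangles for set 2. Macrophage markers lie between 20579 and 23306 CPM, and the matrix list runs from 3731 to 11091 CPM, highest in control 2.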

How the data were processed

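RNA-seq gave 6 libraries of mouse BMSCs, 3 control and 3 RA-treated. For each library the authors deposited a table of read counts by gene, without normalization. The submitters' processing notes name Bowtie2 2.2.3 and mm10, while the counting program and the strand setting are not given in the sources used here. Symbols turned into dates (24) were restored from a table of gene names, and GENCODE M21 gave coordinates and exonic lengths for 25722 of 25722 genes.

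Counts were analysed in R 4.3.3 with edgeR 4.0.16 (TMM, filterByExpr, quasi-likelihood F test, Benjamini-Hochberg adjustment over 13842 genes, no covariate), calling an adjusted p under 0.05 with at least 1.5-fold. The standard error was the fold change (log2) over the root of F. Differences within sets used log2 CPM with a prior count of 2. Alternatives used DESeq2 1.42.0 and the settings of the closing section. Totals of 14737636 to 18511905 counts leave little counting error except for genes of few counts. The fit was tested on simulated counts that held no shared difference between the sets, so the split seen here was not part of that test.

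The members, gene lists and rules were chosen with earlier results of these data known. Named were the 10 members, the genes with the smallest p up to 3 per osteoblast list, genes bordering or duplicating a member, the 5 nearest to Igsf10, and the 2 highest and 1 lowest of each marker list. No 2 libraries of a group agreed within sampling noise (chi-square per degree of freedom of 4.6 to 83.1). qPCR, immunoblots and animal experiments were not analysed here.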

Additional observations from a re-analysis of the deposited data

How the results depend on the processing

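The 4 osteoblast lists held 0 called genes in the main test, and also with the replicate block, with library size alone, with upper-quartile scaling, with at least 10 counts in every library and with no fold threshold. They held 4 with DESeq2 and with the likelihood ratio test (1 structural matrix, 1 mineralization, 2 surface), 1 (matrix) without a filter, and 9 with the set as a term (5 matrix, 1 mineralization, 3 surface). Leaving out 1 library gave 0 to 1, in the matrix list 0 to 1, the 1 being Ogn without RA-treated 3. Over all genes, 6 were called (5 higher, 1 lower). There were 213 (103 and 110) with the set as a covariate, 136 (98 and 38) with DESeq2, 134 (93 and 41) with the likelihood ratio test, and 20 (17 and 3) without a filter. The lower count was 0 with the replicate block and with library size alone, where Igsf10 lost its call. Leaving out 1 library gave 0 to 6 genes (0 to 6 higher, 0 to 0 lower), so that Igsf10 lost its call in each of these fits, while its log2 fold change stayed between -2.69 and -2.42. Genes at an unadjusted p under 0.05 numbered 727, 2096 with the set as a covariate, and 404 to 2045 with 1 library left out. The set term takes out variation between sets, fits without a library hold fewer samples, and the cause of the other moves was not tested. Correlations across genes of same-numbered deviations were -0.51, 0.343 and 0.572 for replicates 1 to 3. Same-numbered libraries share a set for replicates 2 and 3 but not for replicate 1. These values therefore cannot tell pairing by replicate number from membership of the sets.

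The log2 fold changes of Igsf10, Runx2, Sp7 and Ibsp were below 0 and that of Spp1 above 0 in all 14 alternatives. Alpl was below 0 in 4 of 14, Dlx5 in 1, and Sparc and Postn above 0 in 2 of 14. The within-set difference of Bglap, at 0 to 8 counts, moved with the prior count and is not given.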
